A study of Mus musculus with 14 samples.

Results

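Resident macrophages of the mouse heart were followed through 10 of their genes: C1qa, C1qb, C1qc, Csf1r, Adgre1, Mrc1, Lyve1, Cd163, Folr2 and F13a1. The genes were listed by symbol and looked up among the 56748 genes measured in each of 14 WT hearts, and all 10 were found. Levels are given in FPKM, which divides the fragments of each gene by gene length and by library depth. All 10 genes were above 0.5 FPKM in every heart, with 0.742 FPKM for Folr2 in a WT_A heart as the lowest value, so all 10 entered each comparison.

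Resident macrophages lie between the cardiomyocytes and along the vessels of the heart, where they take up dying cells and debris. They depend on signals through the receptor encoded by Csf1r, and many of them carry the surface proteins LYVE1, FOLR2, CD163 and MRC1. Macrophages that arise from recruited blood monocytes typically express the chemokine receptor gene Ccr2 and lack part of this set. Macrophages are also a main source of C1q, the protein that starts the classical pathway of complement.

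The study asked how NAD+ precursors act in mice with an inducible knockdown of frataxin, and the libraries analysed here are from its WT mice alone, 1 library per mouse. All were WT C57BL6J mice on doxycycline chow, which began at 12 to 16 weeks of age, and their labels give the treatment as none, taken here as neither nicotinamide riboside nor nicotinamide mononucleotide. A treatment text common to all samples speaks of treated water, which leaves this unsure. WT_B were 5 males of the second cohort (mice 4, 5, 7, 8 and 9) after 16 weeks of doxycycline, WT_F were 5 females of the pilot cohort (mice 28, 29, 30, 31 and 32) after 26 weeks, and WT_A were 4 males of the pilot cohort (mice 22, 23, 24 and 26) after 20 weeks. Sex, cohort and weeks come from the study's text, with WT_B placed by elimination, while the labels state 16 to 20 weeks without telling the mice apart. The 26 weeks given here for WT_F lie outside that range, so text and labels disagree for these mice. Sex and weeks of doxycycline cannot be told apart in the pilot cohort, nor can cohort and weeks among the males.

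RNA came from a small piece of each heart. The libraries differed in ways that the groups do not explain. Recovered depth was 16810000 to 31970000 fragments per library. Mitochondrially encoded genes took 33.8% to 52.0% of the summed FPKM in 7 libraries, namely all 5 of WT_B, WT_F 28 and WT_A 22, and 1.93% to 17.2% in the other 7. Heart WT_A 24 had 4235 FPKM of the atrial myosin gene Myl7, against at most 2.003 FPKM in the other 13 hearts. Xist was at 1.23 to 4.97 FPKM in WT_F hearts and at most 0.0122 FPKM in the males, which matched the sexes given. The comparisons of the groups and the correlations between the macrophage genes are given with and without WT_A 22, WT_A 24 and WT_F 28, a choice made after seeing the data. Relations with properties of the libraries, values within high or low mitochondrial share and correlations with genes outside the set are given only with these hearts kept.

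Promoter sequence was at hand for 6 of the 10 genes, as windows of 300 bases that run 250 bases before to 50 bases after a RefSeq transcript start (build GRCm38.p6). The 5 windows shown, written in the direction of transcription, belong to the genes with a window that formed the closest pairs across the hearts, C1qb with C1qc and Mrc1 with F13a1 and Cd163. C1qa, closest of all to C1qc, had no window. F13a1 had a pair of windows, and the one shown is that with matches. Capitals mark GGAAGT or its reverse complement ACTTCC, extended to GAGGAAGT or ACTTCCTC where the longer form matched. GGAAGT is a short part of the site bound by PU.1, a transcription factor of macrophages encoded by Spi1, and is not specific to it.
C1qb promoter, chr4:136886151-136886450, minus strand: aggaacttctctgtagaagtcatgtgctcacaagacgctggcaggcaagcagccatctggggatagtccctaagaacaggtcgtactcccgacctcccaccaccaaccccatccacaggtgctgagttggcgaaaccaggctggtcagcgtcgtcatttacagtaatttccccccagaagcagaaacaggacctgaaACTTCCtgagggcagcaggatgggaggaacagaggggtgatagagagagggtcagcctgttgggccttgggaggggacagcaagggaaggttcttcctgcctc
C1qc promoter, chr4:136892865-136893164, minus strand: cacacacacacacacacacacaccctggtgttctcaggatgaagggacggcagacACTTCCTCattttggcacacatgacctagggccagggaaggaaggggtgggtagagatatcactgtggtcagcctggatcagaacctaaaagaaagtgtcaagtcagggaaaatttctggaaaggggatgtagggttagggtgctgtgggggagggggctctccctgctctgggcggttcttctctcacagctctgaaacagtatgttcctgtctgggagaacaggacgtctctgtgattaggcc
Mrc1 promoter, chr2:14229164-14229463, plus strand: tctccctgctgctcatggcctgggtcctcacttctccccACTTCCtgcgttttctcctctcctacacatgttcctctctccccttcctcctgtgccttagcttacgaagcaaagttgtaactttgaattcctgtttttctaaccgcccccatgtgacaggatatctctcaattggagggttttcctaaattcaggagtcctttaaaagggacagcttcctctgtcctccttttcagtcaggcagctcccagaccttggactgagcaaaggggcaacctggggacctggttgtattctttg
Cd163 promoter, chr6:124304401-124304700, plus strand: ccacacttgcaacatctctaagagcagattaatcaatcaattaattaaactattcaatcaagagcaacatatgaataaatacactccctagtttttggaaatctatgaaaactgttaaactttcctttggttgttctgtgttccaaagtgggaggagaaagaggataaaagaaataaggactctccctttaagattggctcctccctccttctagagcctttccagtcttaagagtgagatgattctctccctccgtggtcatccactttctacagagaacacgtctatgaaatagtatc
F13a1 promoter, chr13:37049164-37049463, minus strand: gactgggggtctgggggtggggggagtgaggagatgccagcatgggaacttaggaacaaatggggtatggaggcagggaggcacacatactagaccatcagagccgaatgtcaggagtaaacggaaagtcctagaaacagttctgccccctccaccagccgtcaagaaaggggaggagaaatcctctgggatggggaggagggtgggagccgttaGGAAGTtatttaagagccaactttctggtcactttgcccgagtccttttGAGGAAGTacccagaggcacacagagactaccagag

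GGAAGT was found on either strand in 5 of the 8 windows of these genes, against 23.8% of all 32851 promoter windows of the same length. By gene it was found in 5 of the 6 with a window. That count cannot be set against the share of windows, since Folr2 and F13a1 each had a pair. The longer GAGGAAGT, which contains it, was found in the window of C1qc, in 1 window of F13a1 and in 3.2% of all windows. The match began 53 bases before the start in C1qb, 195 in C1qc and 211 in Mrc1, and the window of Cd163 held none. Folr2, with a pair of windows, had matches 136 and 81 bases before 1 of its starts and none in its other window. F13a1, also with a pair of windows, had a match 35 bases before 1 of its starts and another just after it. Its other window held none. Such matches describe the letters of the windows and do not show binding by PU.1 or by any other factor.

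C1q chain genes were the most abundant of the set. The median over the 14 hearts was 35.5 FPKM for C1qa, 30.9 for C1qb and 16.3 for C1qc, and it was 7.04 FPKM for Lyve1, 6.01 for Csf1r, 4.79 for F13a1, 3.18 for Cd163, 2.75 for Mrc1, 2.40 for Adgre1 and 1.06 for Folr2. FPKM is scaled to gene length but not to base composition, in which these genes differed and on which the libraries differed, as given below. The part of base composition in the order of levels was not tested. Within hearts, C1qb exceeded C1qc and Adgre1 exceeded Folr2 in 14 of 14 hearts (exact paired permutation test, two-sided, adjusted p = 0.000549 for each, Benjamini-Hochberg over 9 neighbouring pairs). In this order 3 neighbouring pairs did not differ beyond their spread by the same exact test: C1qa exceeded C1qb in 9 of 14 hearts (adjusted p = 0.181), Lyve1 exceeded Csf1r in 10 of 14 (adjusted p = 0.0965) and Mrc1 exceeded Adgre1 in 8 of 14 (adjusted p = 0.581). The remaining neighbours differed, with adjusted p between 0.000549 and 0.0161 by the exact test.

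The 3 genes of complement C1q, C1qa, C1qb and C1qc, encode the A, B and C chains of 1 protein and are neighbours on chromosome 4. C1qa had 39.3, 35.98, 39.95, 25.6 and 30.02 FPKM in WT_B hearts, 25.98, 35.1, 23.8, 42.98 and 42.4 FPKM in WT_F hearts and 43.6, 32.6, 22.7 and 41.2 FPKM in WT_A hearts, in order of mouse number. C1qb had 33.5, 29.97, 30.5, 25.4 and 30.1 FPKM in WT_B hearts, 24.96, 31.4, 24.7, 36.5 and 32.99 FPKM in WT_F hearts and 42.9, 38.1, 26.01 and 46.1 FPKM in WT_A hearts, and C1qc had 17.000, 15.7, 17.4, 12.98 and 12.9 FPKM in WT_B hearts, 11.3, 14.5, 13.5, 18.2 and 17.5 FPKM in WT_F hearts and 21.3, 18.3, 11.2 and 18.8 FPKM in WT_A hearts. The groups overlapped for each chain. Mice 8 of WT_B, 28 and 30 of WT_F and 24 of WT_A were the 4 lowest in C1qa and in C1qb and were among the 5 lowest in C1qc. Mouse 22 of WT_A was the highest in C1qa and C1qc and was exceeded only by mouse 26 of WT_A in C1qb. Group means of C1qb were 29.9 ± 2.89 FPKM in WT_B, 30.1 ± 5.14 FPKM in WT_F and 38.3 ± 8.81 FPKM in WT_A (SD, n = 5, 5 and 4), and those of C1qa and C1qc lay closer to each other, at 34.2 ± 6.22 FPKM in WT_B, 34.04 ± 8.95 FPKM in WT_F and 35.02 ± 9.44 FPKM in WT_A for C1qa and 15.2 ± 2.18 FPKM in WT_B, 14.97 ± 2.85 FPKM in WT_F and 17.4 ± 4.32 FPKM in WT_A for C1qc. The ratio of C1qa to C1qb within a heart ran from 0.857 to 1.31 and that of C1qb to C1qc from 1.75 to 2.45.

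Csf1r, the receptor of the growth factors CSF1 and IL-34, had the narrowest spread of the set, with 5.22, 7.54, 7.07, 5.35 and 6.84 FPKM in WT_B hearts, 4.27, 5.16, 5.52, 6.65 and 6.39 FPKM in WT_F hearts and 6.27, 5.73, 5.76 and 7.21 FPKM in WT_A hearts. Its coefficient of variation over the 14 hearts was 15.4%, against 3.57% from counting alone. Adgre1, which encodes the macrophage surface protein F4/80, had 2.203, 3.18, 4.93, 3.02 and 2.402 FPKM in WT_B hearts, 2.396, 1.78, 1.92, 3.02 and 3.19 FPKM in WT_F hearts and 2.86, 2.13, 1.66 and 2.34 FPKM in WT_A hearts, and its highest value, in mouse 7 of WT_B, stood above all others. The ligand genes were measured in the same hearts, Csf1 at 6.59 to 12.1 FPKM and Il34 at 0.850 to 2.51 FPKM.

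In Mrc1, Cd163 and Lyve1, receptors of uptake, WT_A hearts were the most uneven. Mrc1, the mannose receptor CD206, had 2.88, 3.74, 4.24, 2.55 and 3.12 FPKM in WT_B hearts, 2.77, 2.07, 2.73, 2.62 and 2.01 FPKM in WT_F hearts and 4.43, 1.14, 3.57 and 1.89 FPKM in WT_A hearts. Cd163, the scavenger receptor for haemoglobin bound to haptoglobin, had 3.63, 5.57, 4.16, 3.73 and 3.53 FPKM in WT_B hearts, 2.51, 3.07, 3.12, 2.36 and 2.74 FPKM in WT_F hearts and 4.36, 1.55, 3.24 and 2.39 FPKM in WT_A hearts. Lyve1, a hyaluronan receptor that lymphatic endothelium also carries, had 8.08, 8.68, 8.07, 7.02 and 5.27 FPKM in WT_B hearts, 7.52, 6.57, 6.805, 6.53 and 7.06 FPKM in WT_F hearts and 12.002, 5.24, 12.9 and 4.12 FPKM in WT_A hearts. Among WT_A hearts, mice 22 and 24 were high and mice 23 and 26 low in all 3 of these genes, so that WT_A values reached beyond both ends of WT_F and, for Mrc1 and Lyve1, of WT_B. Every WT_B heart was above every WT_F heart in Cd163, and these groups overlapped in Mrc1 and Lyve1.

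Folr2, the folate receptor beta, had 1.19, 1.62, 0.926, 0.931 and 0.8504 FPKM in WT_B hearts, 0.768, 1.18, 0.921, 1.64 and 1.35 FPKM in WT_F hearts and 1.66, 0.742, 0.834 and 1.49 FPKM in WT_A hearts, on only 24 to 82 fragments per heart. Counting alone gives each of these values a relative error of 11.04% to 20.4%, against a coefficient of variation of 29.8% over the hearts. F13a1, the A subunit of coagulation factor XIII, which platelets also hold, had 5.12, 4.92, 5.42, 4.44 and 5.599 FPKM in WT_B hearts, 5.04, 3.36, 4.12, 5.07 and 4.65 FPKM in WT_F hearts and 8.37, 2.22, 4.41 and 4.26 FPKM in WT_A hearts. Mouse 22 of WT_A was the highest and mouse 23 of WT_A the lowest in F13a1, and the WT_B and WT_F hearts lay between them. Coefficients of variation within WT_A were 54.8% for Mrc1, 52.8% for Lyve1, 53.4% for F13a1 and 41.7% for Cd163, against 8.86% to 20.6% in WT_B and 5.92% to 16.2% in WT_F. Over all 14 hearts the 10 genes had coefficients of variation from 15.4% to 32.6% with a median of 29.04%, beside a median of 21.2% over the 13180 genes tested.

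**Figure D1:**
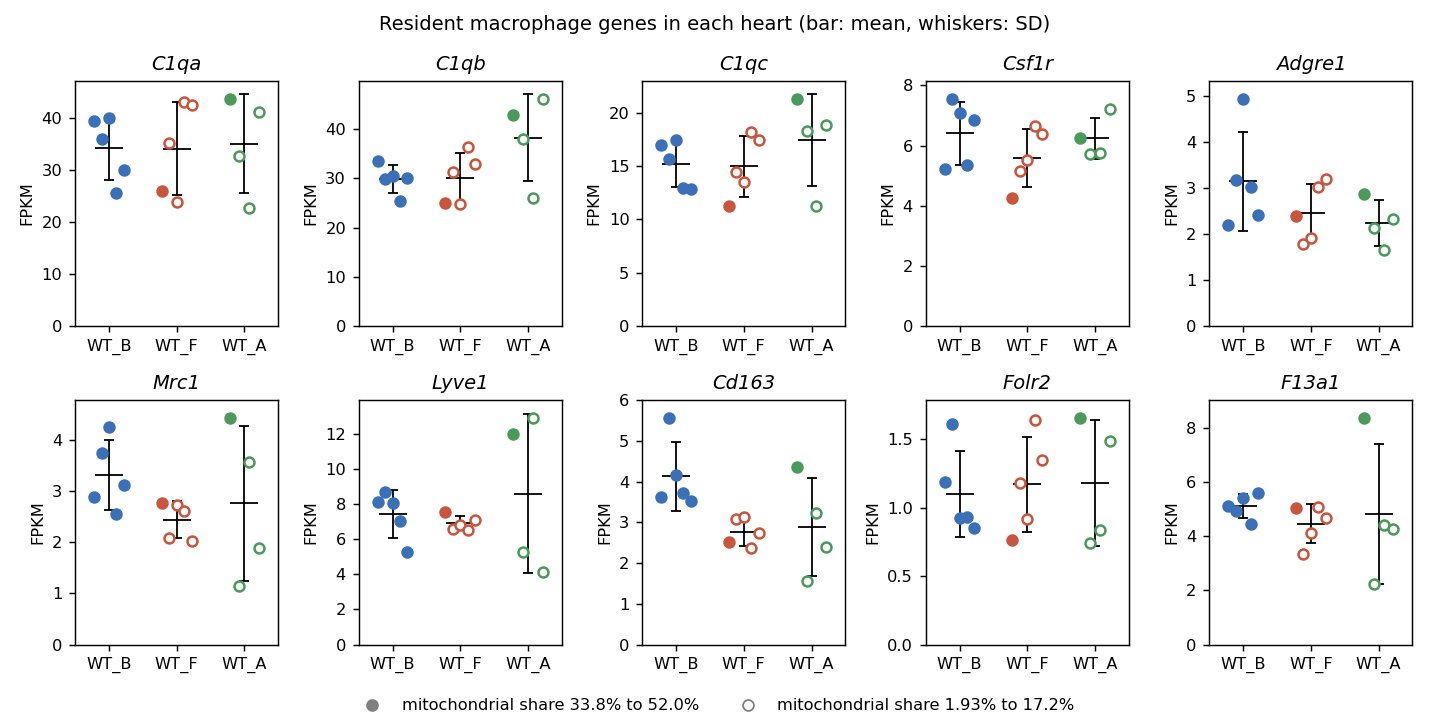
Level of each resident macrophage gene in FPKM (y axis, from 0) in each of the 14 hearts by group (x axis). Each point is a heart, the bar is the group mean and the whiskers are the SD. Filled points are the 7 libraries in which mitochondrially encoded genes took 33.8% to 52.0% of the summed FPKM. The groups overlap in each gene, except that in Cd163 every WT_B heart lies above every WT_F heart.

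Females were compared with males within the pilot cohort (WT_F over WT_A). None of the 10 genes passed at an adjusted p of 0.05 (limma on log2(FPKM + 1), Benjamini-Hochberg over 12483 genes, of which 3, or 0.024%, passed), and none had an unadjusted p under 0.05, which 3.85% of all genes had (2.07% higher and 1.77% lower). In bulk tissue, fewer macrophages and less RNA per macrophage cannot be told apart. The widest difference was that of C1qb, with a log2 fold change of -0.32 (SE 0.18, adjusted p = 1.00 by limma), and the groups overlapped in 10 of 10 genes, where 1.56% of all genes did not overlap. Cd163, Folr2 and F13a1 had log2 fold changes within 0.01 of 0. The 95% intervals over the 10 genes reached from 0.587-fold for Lyve1 to 1.48-fold for F13a1, and the interval of Csf1r was the narrowest, from 0.744-fold to 1.10-fold. The median log2 fold change was -0.04 with 3 of 10 genes positive, beside a median of -0.0019 and 49.5% positive over all genes tested. Without WT_A 22, WT_A 24 and WT_F 28, 0 of the 10 genes passed by limma, where 1 of 11893 genes (0.00841%) did. In that fit Mrc1 had a log2 fold change of 0.43 and Lyve1 of 0.45 (adjusted p = 0.3405 for each by limma), Cd163 of 0.37 (adjusted p = 0.342 by limma) and F13a1 of 0.35 (adjusted p = 0.448 by limma), so Mrc1, Lyve1 and F13a1 turned direction.

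The cohorts were compared in males (WT_B over WT_A). Again 0 of 10 genes passed, where 41 of 12745 genes (0.322%) did, and 0 of 10 had an unadjusted p under 0.05, where 22.5% of all genes had (limma). Cd163 had the smallest p, with 4.12 ± 0.842 FPKM in WT_B and 2.89 ± 1.204 FPKM in WT_A (SD, n = 5 and 4) and a log2 fold change of 0.44 (SE 0.20, adjusted p = 0.239 by limma). C1qb went the other way at -0.32 (SE 0.16, adjusted p = 0.271 by limma), and Adgre1 had 0.33 (SE 0.18, adjusted p = 0.300 by limma). No gene had separate groups, where 6.91% of all genes did (2.84% higher and 4.07% lower). The median log2 fold change was 0.0065 with 5 of 10 positive, beside -0.04 and 44.7% positive over all genes.

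This comparison turned on 1 or a few libraries. Without WT_A 22, Cd163 passed with a log2 fold change of 0.61 (adjusted p = 0.0454 by limma), as did 2392 of 12603 genes (19%). Without WT_A 22 and WT_A 24, 5 of the 10 genes passed by limma: Cd163 at 0.79 (adjusted p = 0.00898), Mrc1 at 0.78 (adjusted p = 0.0104), F13a1 at 0.56 (adjusted p = 0.0356) and Lyve1 at 0.56 (adjusted p = 0.0350) were higher in WT_B, and C1qb at -0.48 (adjusted p = 0.0179) was lower. Lyve1 had -0.07 with all hearts, so its direction turned. With the log2 mitochondrial share as covariate and all hearts, by contrast, the log2 fold changes were -0.12 for Cd163, -0.42 for Mrc1 and -0.55 for F13a1, the other direction, and none of them passed (adjusted p = 0.994 for each by limma). Lyve1 had -0.85 in that fit (adjusted p = 0.953 by limma). Of the WT_A libraries only WT_A 22 had a share as high as in WT_B, so this fit leans on it and separates group from share only in part. Without WT_A 22 and WT_A 24, 4206 of 12448 genes (33.8%) passed, all 5 WT_B libraries had a high mitochondrial share and the remaining WT_A libraries a low one, so group and mitochondrial share cannot be told apart there. The same holds without WT_A 22 alone.

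Second-cohort males were compared with pilot females (WT_B over WT_F), which differ in sex, cohort and weeks at once. At an adjusted p of 0.05, 0 of 10 genes passed, where 208 of 12894 genes (1.61%) did. Cd163 came nearest, at 4.12 ± 0.842 FPKM in WT_B and 2.76 ± 0.336 FPKM in WT_F (SD, n = 5 each), with a log2 fold change of 0.44 (SE 0.11, 95% interval 1.15-fold to 1.60-fold, adjusted p = 0.0601 by limma). In 1 of the 10 genes, Cd163, the groups did not overlap, where 5.23% of all genes were so placed, 1.62% with WT_B higher and 3.61% with WT_B lower. Heart WT_F 28, whose mitochondrial share was as high as in WT_B, had 2.51 FPKM of Cd163, below every WT_B heart. This is 1 heart, and the part of the library differences in the result was not tested. Over the alternatives the adjusted p of Cd163 ran from 0.0314 to 0.494. It passed only with voom on recovered fragments (log2 fold change 0.56, adjusted p = 0.0440, with 4.05% of genes passing) and without WT_F 28 (0.41, adjusted p = 0.0314 by limma, with 20.7% of genes passing). It did not pass with the mitochondrial share as covariate or with the GC and length trend removed. Without WT_F 28 every WT_F library had a low mitochondrial share and every WT_B library a high one, so group and share cannot be told apart in that fit.

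Mrc1 had 3.31 ± 0.6805 FPKM in WT_B and 2.44 ± 0.366 FPKM in WT_F (SD, n = 5 each), a log2 fold change of 0.32 (SE 0.12, adjusted p = 0.125 by limma). Mrc1 and Cd163 were the 2 of 10 genes with an unadjusted p under 0.05, where 25.8% of all genes had one. The log2 fold change of Mrc1 was 0.13 with the GC and length trend removed and 0.16 with the mitochondrial share as covariate. The other 8 genes lay between -0.04 for Folr2 and 0.24 for Adgre1. The median over the 10 genes was 0.12 with 8 positive, beside a median of -0.03 and 44% positive over all genes.

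**Figure D2:**
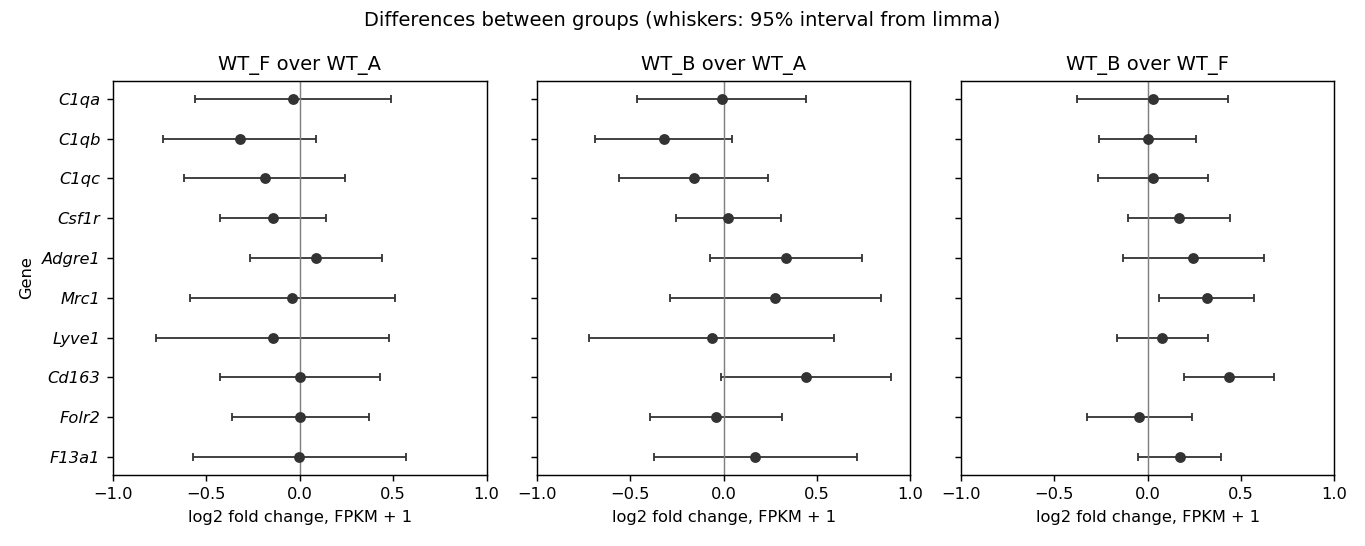
Log2 fold change on the log2(FPKM + 1) scale (x axis) of each resident macrophage gene (y axis) in the 3 comparisons, with whiskers for the 95% interval from limma. Every interval includes 0 for WT_F over WT_A and WT_B over WT_A, and those of Mrc1 and Cd163 lie above 0 for WT_B over WT_F.

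How far the genes moved together was measured as Pearson r of log2(FPKM + 1) across the 14 hearts for the 45 pairs. The median r was 0.38, beside 0.0044 over all 86849610 pairs of the 13180 genes tested, and 36 of 45 pairs were positive, beside 50.4% of all pairs. At this n, 7 pairs passed (100000-resample permutation test, two-sided, adjusted p of at most 0.05 over the 45 pairs) and none of them was negative. An r as high as the lowest of these, 0.72, was reached by 4.08% of all gene pairs. With group means subtracted first, the median r was 0.37, beside 0.0029 over all gene pairs, and 10 pairs passed. An r as high as the lowest of those, 0.69, was reached by 5.16% of all gene pairs. The permutation did not allow for the means removed, so these calls serve as a description. Some shared movement thus remained within groups, where Mrc1, Lyve1, Cd163 and F13a1 varied most in WT_A.

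The C1q chains moved most tightly. C1qa and C1qc had r = 0.89 (permutation adjusted p = 0.0018, Spearman rho 0.85, adjusted p = 0.00607), C1qb and C1qc r = 0.88 (permutation adjusted p = 0.0018, rho 0.88, adjusted p = 0.0045) and C1qa and C1qb r = 0.80 (permutation adjusted p = 0.00423, rho 0.79, adjusted p = 0.0112). Without the 2 hearts farthest from the median they had 0.88, 0.86 and 0.74. Within the 7 libraries of high mitochondrial share the same pairs had 0.95, 0.90 and 0.87, and within the 7 of low share 0.87, 0.88 and 0.79. Folr2 moved with C1qa at r = 0.75 (permutation adjusted p = 0.0226, rho 0.79, adjusted p = 0.0112, 0.75 without the 2 farthest hearts), with 0.69 and 0.81 within the libraries of high and low share. Without WT_A 22, WT_A 24 and WT_F 28 the 3 pairs of chains had 0.82, 0.82 and 0.72, of which 2 passed. Folr2 with C1qa had 0.64 there and did not pass.

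A further group of pairs joined the scavenger and endocytic receptors to F13a1. Mrc1 and Cd163 had r = 0.83 (permutation adjusted p = 0.00405, rho 0.79, adjusted p = 0.0112), Mrc1 and F13a1 r = 0.83 (permutation adjusted p = 0.00405, rho 0.73, adjusted p = 0.0283) and Mrc1 and Lyve1 r = 0.72 (permutation adjusted p = 0.0276, rho 0.76, adjusted p = 0.0187). These lean on mice 22 and 23 of WT_A, without which they had 0.69, 0.57 and 0.62. They had 0.63, 0.70 and 0.63 within the libraries of high mitochondrial share and 0.82, 0.74 and 0.76 within those of low share. Without WT_A 22, WT_A 24 and WT_F 28 the same pairs had 0.88, 0.83 and 0.64. The 6 pairs among Mrc1, Lyve1, Cd163 and F13a1 were all positive with a median of 0.68, a grouping that was chosen after the values had been seen and carries no test.

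Between the C1q chains and these 4 genes r lay near 0 over the 14 hearts. The 12 pairs between them had a median r of -0.08, from -0.28 for C1qb and Lyve1 to 0.29 for C1qa and F13a1, with 4 of 12 positive, and a median of 0.03 with 7 positive under median-of-ratios scaling. The difference between the 2 kinds of library was not tested. In the 7 hearts of high mitochondrial share the 12 pairs had a median of 0.69 and all were positive, whereas in the 7 hearts of low share the median was -0.64 and 1 was positive, a set that holds WT_A 23, WT_A 24 and WT_A 26. In neither set of 7 hearts did any of the 45 pairs pass after adjustment (exact permutation test over 5040 orders), with 11 and 10 pairs at an unadjusted p under 0.05. Csf1r and Adgre1 stood between, with median r of 0.51 and 0.41 with the C1q chains and of 0.23 and 0.39 with the 4 genes, and 0 of these pairs passed. The mean r of a gene with the other 9 was highest for Folr2 at 0.43 and lowest for Lyve1 at 0.14.

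**Figure D3:**
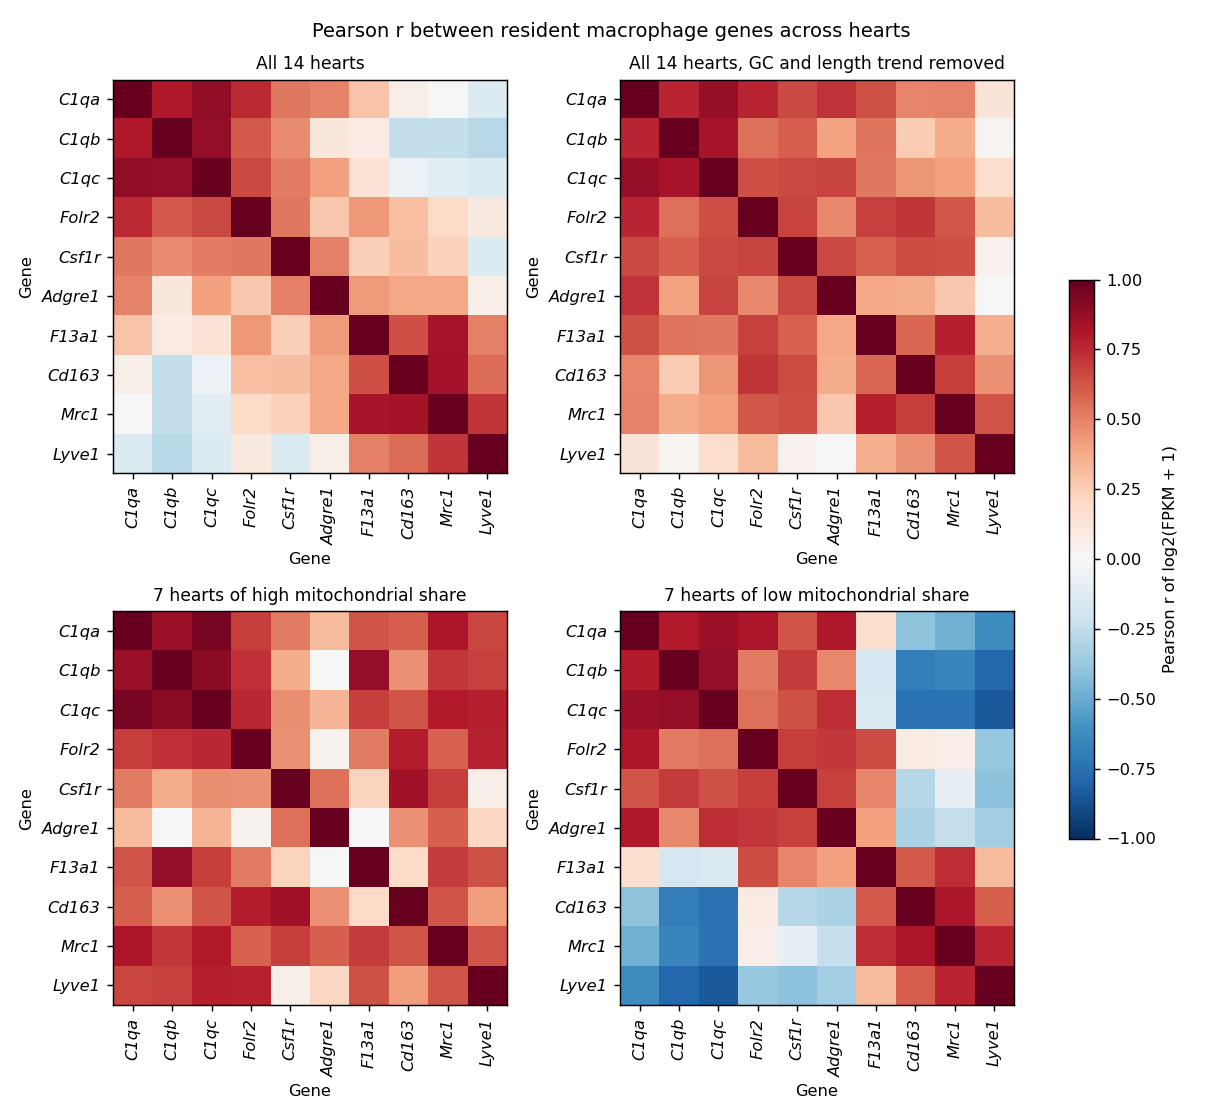
Pearson r of log2(FPKM + 1) (colour, from -1 to 1) between the 10 resident macrophage genes (both axes) across all 14 hearts, across all 14 after removal of the trend on GC content and length, and within the 7 hearts of high and the 7 of low mitochondrial share. The C1q chains form a block of r from 0.80 to 0.89 in all hearts, and the 12 pairs between them and Mrc1, Lyve1, Cd163 and F13a1 have a median of -0.08 in all hearts, 0.69 at high share and -0.64 at low share.

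**Figure D4:**
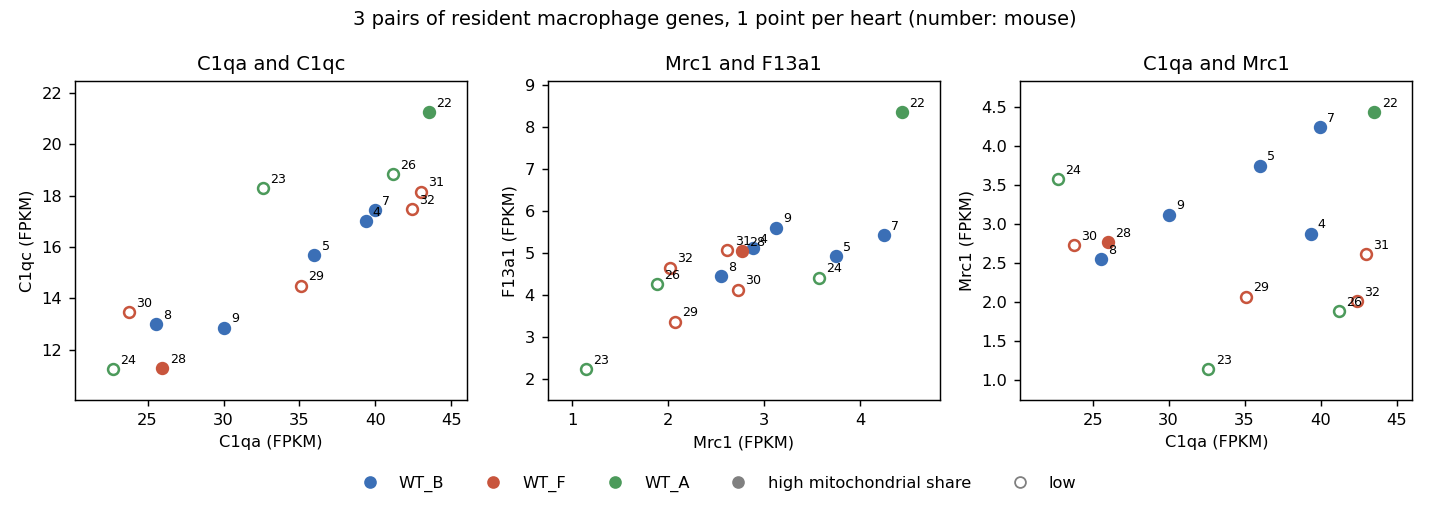
FPKM of 1 gene against that of another for C1qa with C1qc (r = 0.89), Mrc1 with F13a1 (r = 0.83) and C1qa with Mrc1 (r = -0.0015). Each point is a heart with its mouse number, coloured by group, and filled points have a high mitochondrial share. The axes do not start at 0.

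The same genes differed in base composition. GC content of the transcripts was 59.5% for C1qa, 57.4% for C1qb, 57.5% for C1qc, 54.5% for Csf1r and 51.8% for Folr2, against 47.9% for Cd163, 47.2% for Adgre1, 45.9% for F13a1, 45.8% for Lyve1 and 43.4% for Mrc1. For each library a GC slope was computed, the change in log2 level per 10% of GC content over all genes relative to the mean library. It was fitted to the same values as those of the 10 genes. Genes of low GC content therefore run against it on average, and genes of high GC content with it. The permutation p-values given for it do not allow for that. The GC slope was -0.27 to -0.06 in the 7 libraries of high mitochondrial share and 3.2e-05 to 0.32 in the 7 of low share. Of 20 relations of the 10 genes with the GC slope and with the log2 mitochondrial share, 6 passed by Pearson r, those of Mrc1, Cd163 and F13a1 with each, and 3 by Spearman rho, those of Mrc1 and Cd163 with the GC slope and of Cd163 with the mitochondrial share. An r of at least this size in either direction was reached by 37.5% of the 13180 genes with the GC slope and by 36.1% with the mitochondrial share, close to the 3 of 10 genes here.

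Mrc1 had r = -0.77 with the GC slope (permutation adjusted p = 0.0101, rho -0.75, adjusted p = 0.0387), Cd163 had -0.73 (permutation adjusted p = 0.0126, rho -0.71, adjusted p = 0.0387) and F13a1 had -0.62 (permutation adjusted p = 0.0271, rho -0.63, adjusted p = 0.0707). Without the 2 farthest hearts these were -0.65, -0.59 and -0.50. Within the libraries of low share they were -0.79, -0.72 and -0.32, and within those of high share -0.22, 0.05 and -0.07, so the relation was not seen within high share. With the log2 mitochondrial share, Mrc1 and Cd163 each had r = 0.75 (permutation adjusted p = 0.0101 for each, rho 0.63 and 0.71, adjusted p = 0.0707 and 0.0387) and F13a1 had 0.63 (permutation adjusted p = 0.0271, rho 0.60, adjusted p = 0.0707). Within the libraries of high share these were -0.0086, 0.11 and -0.03, and within those of low share 0.71, 0.67 and 0.34. The C1q chains had r from 0.21 to 0.45 with the GC slope over all hearts, and none passed, with 0.79 to 0.89 within low share. The part of GC content and of the mitochondrial share in the correlations between the genes was not tested.

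The ratio of the summed C1q chains to the sum of Mrc1, Lyve1, Cd163 and F13a1 was also taken for each heart. It was 4.56, 3.56, 4.01, 3.603 and 4.16 in WT_B hearts, 3.49, 5.37, 3.69, 5.89 and 5.64 in WT_F hearts and 3.69, 8.77, 2.49 and 8.38 in WT_A hearts. Mice 23 and 26 of WT_A had the highest ratios and the highest GC slopes, which were computed from the same values. All 7 libraries of high mitochondrial share lay between 3.49 and 4.56, while the 7 of low share spread from 2.49 to 8.77. Mouse 24 of WT_A, the heart high in Myl7, had the lowest ratio at a GC slope of 0.07.

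**Figure D5:**
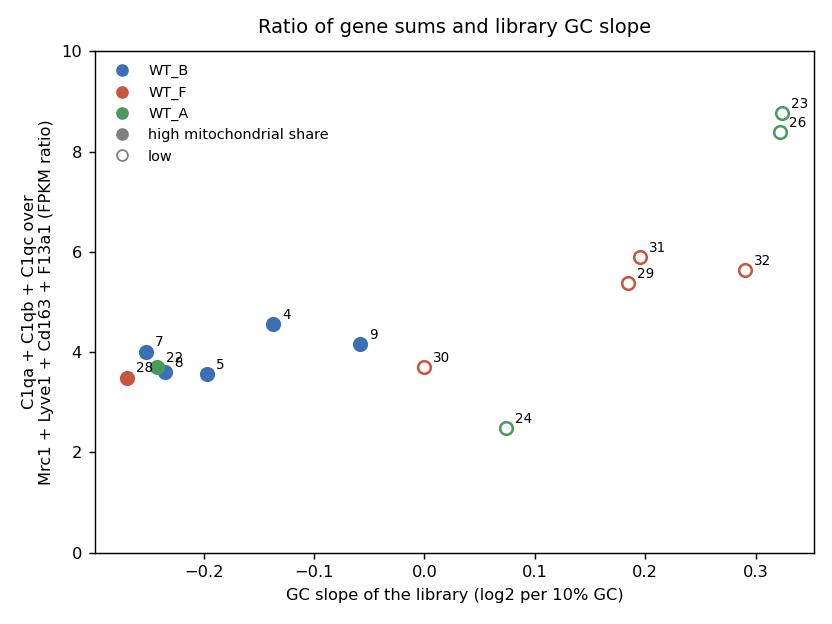
Ratio of the summed FPKM of C1qa, C1qb and C1qc to that of Mrc1, Lyve1, Cd163 and F13a1 (y axis, from 0) against the GC slope of the library (x axis, log2 per 10% GC). Each point is a heart with its mouse number, coloured by group and filled where the mitochondrial share was high. The filled points lie between ratios of 3.49 and 4.56 and mice 23 and 26 at 8.77 and 8.38.

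When the trend on GC content and length was removed from each library, an alternative chosen after seeing the data, the 10 genes moved together more evenly. The median r over the 45 pairs became 0.58, beside 0.0004 over all gene pairs, 44 of 45 pairs were positive and 22 passed (permutation test, adjusted over the 45 pairs), where 5.92% of all gene pairs reached the lowest r of those called. The C1q chains kept a median of 0.83 and the pairs among Mrc1, Lyve1, Cd163 and F13a1 had 0.60. The 12 pairs between them had a median of 0.43, all were positive, and 1 of them passed, C1qa with F13a1 (r = 0.64, permutation adjusted p = 0.0307). The only negative pair was Adgre1 with Lyve1, at -0.0063. Without WT_A 22, WT_A 24 and WT_F 28 and with no such removal, the median over the 45 pairs was 0.35, 4 passed, and the 12 pairs had a median of -0.20. The 4 were 2 of the 3 pairs of C1q chains and 2 of the 6 among Mrc1, Lyve1, Cd163 and F13a1.

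The 10 other genes most like the set, by their mean r with the 10 genes over the 14 hearts among 10528 genes at 0.5 FPKM or more in every heart, included several of myeloid cells. Pirb, an inhibitory receptor of myeloid cells, had a mean r of 0.55 at 0.602 to 1.57 FPKM, and C5ar1, the receptor of the complement fragment C5a, had 0.51 at 1.52 to 3.13 FPKM. Both had r = 0.76 with C1qa, and 0.51 and 0.37 with Mrc1. They were followed by Slc7a6os at 0.44, Laptm5, a lysosomal membrane protein of blood cells, at 0.43, Medag and Gm20632 at 0.42 each, Lacc1 and Tmem106a at 0.41 each, C3ar1, the receptor of the complement fragment C3a, at 0.41 and the pseudogene Nutf2-ps1 at 0.41. Laptm5 had r = 0.78 with C1qa and 0.04 with Mrc1, while Lacc1 had 0.28 with C1qa and 0.75 with Mrc1. After removal of the GC and length trend Pirb, C5ar1 and Laptm5 had a mean r of 0.65, 0.61 and 0.62, and C3ar1 had 0.17. Gm20632 and Tmem106a then had 0.56 each, Medag 0.55, Nutf2-ps1 0.53, Lacc1 0.49 and Slc7a6os 0.32, so the rise was not particular to genes of myeloid cells.

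A list of 34 other macrophage genes was measured beside the set. None of 28 tested passed for WT_F over WT_A, 0 of 30 for WT_B over WT_A and 1 of 29 for WT_B over WT_F (limma), the growth factor gene Igf1, at 1.05 ± 0.117 FPKM in WT_B and 0.401 ± 0.194 FPKM in WT_F (SD, n = 5 each), a log2 fold change of 0.56 (SE 0.09, adjusted p = 0.0263 by limma). In WT_F hearts Igf1 lay between 0.278 and 0.742 FPKM with a median of 0.316, so it met the filter of 0.5 FPKM through WT_B, the group in which it was high, and its call carries little weight. Igf1 is also expressed by other cells of the heart, fibroblasts among them. At an unadjusted p under 0.05 the 3 comparisons held 2 of 28, 7 of 30 and 4 of 29 genes of this list, beside 3.85%, 22.5% and 25.8% of all genes. In the first, Apoe, a lipid carrier that macrophages secrete, had 99.1 ± 21.3 FPKM in WT_F and 163.6 ± 51.7 FPKM in WT_A (SD, n = 5 and 4), a log2 fold change of -0.70 (SE 0.22, adjusted p = 1.00 by limma).

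Of these genes, 20 were at 0.5 FPKM or more in every heart. Their mean r had a median of 0.53 with the C1q chains and of -0.05 with Mrc1, Lyve1, Cd163 and F13a1, beside 0.03 and -0.17 over 10438 genes at that level. Genes of other cells also had positive values with the chains, with a median of 0.49 over 9 pericyte and smooth muscle genes, of 0.43 over 15 endothelial genes and of 0.43 over 5 dendritic cell genes. Among them Vtn, a pericyte gene, had 0.84 and the endothelial gene Esam 0.69. Laptm5 had 0.78 with the chains, Tyrobp, an adaptor of myeloid receptors, 0.75, Cd68, a lysosomal protein, 0.69, and Ctss, the protease cathepsin S, 0.65, while their mean r with the 4 genes ran from -0.28 for Tyrobp to 0.04 for Laptm5. Of the 20 genes, 3 were negative with the chains: Stab1, a scavenger receptor, had -0.35 with the chains and 0.26 with the 4 genes, Mertk, a phagocytic receptor, -0.21 and 0.49, and Gas6, a ligand of Mertk, -0.13 and -0.15. After removal of the GC and length trend, 19 of the 20 were positive in their mean r with all 10 genes, with a median of 0.30, beside 46.1% positive and a median of -0.03 over the 10438 genes. The mitochondrially encoded mRNAs had 12 of 12 positive with a median of 0.36 and the pericyte and smooth muscle genes 9 of 9 with 0.26, so positive values were not particular to macrophage genes.

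Genes around CSF1R and complement were taken as further lists. Of 11 tested genes of CSF1R ligands and signalling, which include Csf1r itself, 0 passed in any of the 3 comparisons, and 0 had an unadjusted p under 0.05 (limma). Of all genes, 0.024%, 0.322% and 1.61% passed in the 3 comparisons, and 3.85%, 22.5% and 25.8% had an unadjusted p under 0.05. Csf1, a ligand gene, had a mean r of 0.59 with the C1q chains and of -0.60 with Mrc1, Lyve1, Cd163 and F13a1. The other ligand gene, Il34, had 0.55 and -0.02. Medians were 0.03 and -0.17 over 10438 genes, 0.26 and -0.34 over 16 cardiomyocyte genes and 0.43 and -0.55 over 5 dendritic cell genes. Opposite signs were therefore not particular to Csf1. After removal of the GC and length trend, the mean r of Csf1 with the whole macrophage set was 0.03. Of 18 tested complement genes, which include the C1q chains, 0 passed in each comparison, with 2, 0 and 3 at an unadjusted p under 0.05 (limma), beside the same shares of all genes. For WT_B over WT_F, the downstream components C4b and C3 had log2 fold changes of 0.63 (SE 0.15, adjusted p = 0.0552 by limma) and 0.45 (SE 0.13, adjusted p = 0.0739 by limma). In the same fit the C1q chains lay between -0.00026 and 0.03. C1qa had 0.42 with the mitochondrial share as covariate (adjusted p = 0.634 by limma) and 0.19 with the GC and length trend removed (adjusted p = 0.486 by limma). C4b and C3 were not taken through these alternatives.

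Genes of other cells that could carry part of these transcripts were measured in the same hearts. Of the genes listed as lymphatic endothelial, the transcription factor gene Prox1 was at 3.79 to 6.85 FPKM and the chemokine gene Ccl21a at 5.26 to 39.2 FPKM. Their mean r with Mrc1, Lyve1, Cd163 and F13a1 was 0.30 for Prox1 and -0.51 for Ccl21a. These are means over the 4 genes and do not speak to Lyve1 alone, for which no such r is given. The median of this mean r over the 5 of 8 lymphatic genes at 0.5 FPKM or more in every heart was -0.47. Of the platelet genes, Ppbp was at 0.235 to 2.59 FPKM, Gp9 at 0 to 1.56 FPKM and Gp1bb is listed at 0 in all 14 hearts. Of the monocyte genes, Ccr2 was at 0.0051 to 0.427 FPKM and Ly6c2 at 0 to 0.195 FPKM, and 1 of 4 tested passed, where 1.61% of all genes did, Ace for WT_B over WT_F at 14.3 ± 1.89 FPKM in WT_B and 10.1 ± 0.790 FPKM in WT_F (SD, n = 5 each, log2 fold change 0.45, SE 0.10, adjusted p = 0.0440 by limma), a gene that endothelium also expresses. The resident macrophage gene Timd4 was at 0.146 to 0.684 FPKM. The summed level of 14 neutrophil genes was 1.43 to 5.35 FPKM in 13 hearts and 16.8 FPKM in mouse 22 of WT_A, the heart with the most Mrc1, Folr2 and F13a1, and that of 14 genes of recruited or activated macrophages was 4.12 to 10.3 FPKM in 13 hearts and 42.8 FPKM in mouse 24 of WT_A, of which Lgals3 made 39.02. Their part in the levels of the 10 genes in these 2 hearts was not tested.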

How the data were processed

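Libraries from the hearts of 14 WT mice were used. The authors isolated RNA with Qiagen RNeasy kits, had poly(A)-selected libraries sequenced, counted fragments with featureCounts and compared groups with DESeq2, and the submitters' processing notes name build GRCm39. The deposited values are FPKM per gene, calculated by the authors. The labels allow a strand-specific or a non-specific library, and which was used is not given in the sources used here, so genes overlapping on opposite strands may share fragments. Of 56748 Ensembl identifiers, 52073 were named with GENCODE M21 (GRCm38), which also gave GC content and lengths.

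For each comparison, genes that reached 0.5 FPKM in no fewer than 4 libraries entered a test on log2(FPKM + 1) with limma 3.58.1 (moderated test with intensity trend, two-sided) in R 4.3.3, with Benjamini-Hochberg adjustment over all genes tested and a threshold of 0.05. On this scale the fold changes of low genes come out too small. Fragments were recovered from the FPKM steps: 90.1% to 91.8% of values of 1 to 30 fragments lay no more than 0.02 from whole, where chance gives 4%. They were tested with voom as an alternative, and counting errors cover counting alone. Correlations used 100000 permutations of the hearts, or all orders for 7 hearts. The limma fit and the permutation test of the pairs were also run on simulated data with known answers, and the outcomes are not given here. The p-values measure the spread between these mice.

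The genes named are the 10 of the set, the 10 most like them, and of each other list those called and up to 4 with the smallest p. Other genes were named after their values were seen. The set, the lists and the tests were chosen with earlier results of these data known. Alternatives were a pseudocount of 0.1, no filter, a filter of 2 FPKM, median-of-ratios scaling, 1 fit of all 14 libraries, the mitochondrial share as covariate, and each heart left out. Removal of the trend on GC content and length, and leaving out WT_A 22, WT_A 24 and WT_F 28 together, were added after seeing the data. Computations were done in Python 3.11.15 with numpy 2.4.6, pandas 2.3.3, scipy 1.17.1 and matplotlib 3.10.9.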

Additional observations from a re-analysis of the deposited data

How the results depend on the processing

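Folr2, on 24 to 82 fragments per heart, had the largest counting error of the set. Over the 30 gene and comparison results, 461 of 547 alternative values kept direction and side of the threshold, 78 turned direction and 9 were called, 1 of which had also turned, Lyve1 for WT_B over WT_A without the 3 hearts. No paired analysis was possible because the groups share no replicate numbers. The cause of these shifts was not tested.

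Called genes over all genes tested moved with the settings. For WT_F over WT_A (3 calls) there were 6 with a pseudocount of 0.1, 1 with no filter, 9 with all 14 libraries in 1 fit, 1 with voom, 7 with the GC and length trend removed, 1 without WT_A 22, WT_A 24 and WT_F 28, and 0 to 4 with a heart left out. For WT_B over WT_A (41 calls) there were 0 with no filter (limma, 3791 at an unadjusted p under 0.05), 26 with a filter of 2 FPKM, 401 with 1 fit, 2 with the mitochondrial covariate, 12 with voom, 87 with the trend removed, 4206 without the 3 hearts, and 0 to 2392 with a heart left out, the highest without WT_A 22. For WT_B over WT_F (208 calls) there were 20 with no filter, 35 with 1 fit, 11 with the covariate, 512 with voom, 2645 without the 3 hearts, and 17 to 2645 with a heart left out, the highest without WT_F 28. With median-of-ratios scaling the calls for WT_B over WT_F were 77 higher and 84 lower, against 86 higher and 122 lower.

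The median r of the 45 pairs (0.38) was 0.63 in the hearts of high mitochondrial share, 0.58 with the trend removed and 0.29 to 0.40 with a heart left out. The 7 pairs that passed became 0 within high and 0 within low share (permutation test, 11 and 10 at an unadjusted p under 0.05), 22 with the trend removed, 4 without the 3 hearts and 5 to 10 with a heart left out.

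Directions turned as follows, as log2 fold changes. For WT_F over WT_A, the mitochondrial covariate gave 0.0030 for C1qa and -0.079 for Cd163, the trend removal -0.0046 for Cd163, the fit without the 3 hearts 0.43 for Mrc1, 0.45 for Lyve1 and 0.35 for F13a1, and for F13a1 a pseudocount of 0.1 gave 0.020, median-of-ratios scaling 0.0058 and voom 0.019. For WT_B over WT_A, median-of-ratios scaling gave 0.053 for C1qa, the trend removal 0.17 for C1qa, 0.037 for C1qc and 0.13 for Folr2, the covariate -0.42 for Mrc1, -0.12 for Cd163 and -0.55 for F13a1, and the fit without the 3 hearts -0.018 for Csf1r, 0.56 for Lyve1 and 0.0015 for Folr2. For WT_B over WT_F, C1qb had 6.6e-05 with a pseudocount of 0.1, 0.051 with median-of-ratios scaling, 0.24 with the covariate and 0.17 with the trend removed, Lyve1 had -0.0077 and Folr2 0.17 with the covariate, Folr2 had 0.11 with the trend removed, and the fit without the 3 hearts gave -0.058 for C1qa and -0.062 for C1qc.

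With a heart left out, the ranges that crossed 0 for WT_F over WT_A were -0.22 to 0.078 for C1qa, -0.0045 to 0.17 for Adgre1, -0.28 to 0.17 for Mrc1, -0.40 to 0.080 for Lyve1, -0.18 to 0.17 for Cd163, -0.096 to 0.11 for Folr2 and -0.25 to 0.26 for F13a1. For WT_B over WT_A they were -0.20 to 0.10 for C1qa, -0.030 to 0.087 for Csf1r, -0.32 to 0.16 for Lyve1, -0.14 to 0.063 for Folr2 and -0.081 to 0.43 for F13a1. For WT_B over WT_F they were -0.089 to 0.12 for C1qa, -0.065 to 0.071 for C1qb, -0.062 to 0.099 for C1qc and -0.13 to 0.029 for Folr2.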
